A study of Saccharomyces cerevisiae with 15 samples.

Results

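Budding yeast lost either all of its nitrogen source or only its amino acids for 20 min, and the RNA response to the first starvation was set against the response to the second, gene by gene. The quantity described is a difference of log2 ratios: the ratio of starved to growing cells on the total nitrogen starvation array minus the same ratio on the amino acid starvation array. A gene was included when it had a nonzero value on both arrays, which was the case for 5399 of 6249 genes or probes on the array, 3791 of them with a gene name. A positive difference means that the transcript was higher, relative to growing cells, after nitrogen was withdrawn than after amino acids were withdrawn.

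Both arrays held wild-type Saccharomyces cerevisiae of strain ACY044, a MATa strain in the W303 background. Starved cells were labelled with Cy5 and cells of the same strain in mid-log growth with Cy3. The labels name the growth medium SD, the nitrogen starvation medium SD -N2 and the amino acid starvation medium SD -AA. The sources used here do not say what those media contained beyond their names, which auxotrophic alleles the strain carried, or whether both arrays used the same mid-log RNA. Values on 4 other arrays, which the difference did not use, are given beside them in places. These held wild-type cells with 200 nM rapamycin, snf1 knockout cells (strain ACY509) in nitrogen starvation, and wild-type cells in nitrogen starvation with 0.375 M KCl or with glucose withdrawn as well. Each condition had 1 array, in 1 dye orientation. No difference below has a replicate check, no test was possible, and dye bias cannot be told apart from the response to either starvation. A gene was counted as higher or lower when the difference was at least 2-fold, a log2 value of at least 1 in size. The only repeat measurements were 4 genes with a pair of probes on the array, whose differences were 0.03 to 0.62 log2 units apart (SD 0.254). Each value is an average over a culture, so fewer cells with a transcript and less transcript per cell cannot be told apart. Mating type could not be checked, because a ratio gives no level: of the a-specific genes 6 had a value, with a median difference of −0.53, and of the alpha-specific genes 4, with a median of 0.08, and none of either differed 2-fold.

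As background, yeast cells with a good nitrogen source keep the genes for using poorer ones silent, which is called nitrogen catabolite repression. When glutamine or ammonium runs short, or when the TORC1 kinase is inhibited, the GATA factors Gln3 and Gat1 turn on permeases and enzymes for allantoin, urea, proline, GABA and arginine, and the GATA repressors Dal80 and Gzf3 oppose them. Missing amino acids are read through uncharged tRNA by the kinase Gcn2, which raises translation of Gcn4, the activator of amino acid synthesis genes. Amino acids outside the cell are read by the Ssy1-Ptr3-Ssy5 (SPS) sensor, which turns on a set of amino acid permeases. The retrograde response, through Rtg1 and Rtg3, supplies 2-oxoglutarate for glutamate synthesis.

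Most genes were at similar ratios on the arrays. The median difference was 0.01, and 75.4% of the genes lay within 0.5 log2 units of 0. In all, 130 genes (2.41%) were at least 2-fold higher in nitrogen starvation and 237 genes (4.39%) at least 2-fold lower. These shares are the background for each count of higher or lower genes in a list below. Against mid-log cells, nitrogen starvation had 800 genes (14.8%) up by 2-fold or more and 808 (15%) down by as much. In amino acid starvation 734 (13.6%) were higher and 781 (14.5%) lower. Ratios spread more widely on the nitrogen array, with an SD of 1.23 over genes against 1.06. The balance of the difference depended on how the arrays were put on a common scale: 132 higher and 167 lower genes were left after both arrays were scaled to equal SD, and 158 higher and 98 lower after quantile normalization, while moving both medians to 0 gave 112 and 285.

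The higher and the lower genes had different shapes. Of the 130 higher genes, 46 were at least 2-fold up in nitrogen starvation with amino acid starvation within 2-fold of mid-log, 43 were up on both arrays, 19 were within 2-fold in nitrogen starvation and down in amino acid starvation, and 17 were within 2-fold on both. Of the 237 lower genes, 146 were at least 2-fold down on both arrays and 32 were up on both, so most of them differed in how far they had moved from mid-log and not in direction. Large differences were mostly positive: 34 higher genes were at least 4-fold apart and 7 at least 16-fold, against 14 and 0 of the lower genes. Only 5 genes (0.0926%) were at least 2-fold up in nitrogen starvation and 2-fold down in amino acid starvation, and 3 (0.0556%) the reverse. Genes on the edge of the 2-fold limit were CAT5 and GIT1 at 1.0 just inside it and CUP1-1 and LRG1 at 0.99 just outside it. On the lower side HXT4 and MRT4 stood at −1.0, RPS17B at −0.99 and ADE1 at −0.98.

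**Figure D1:**
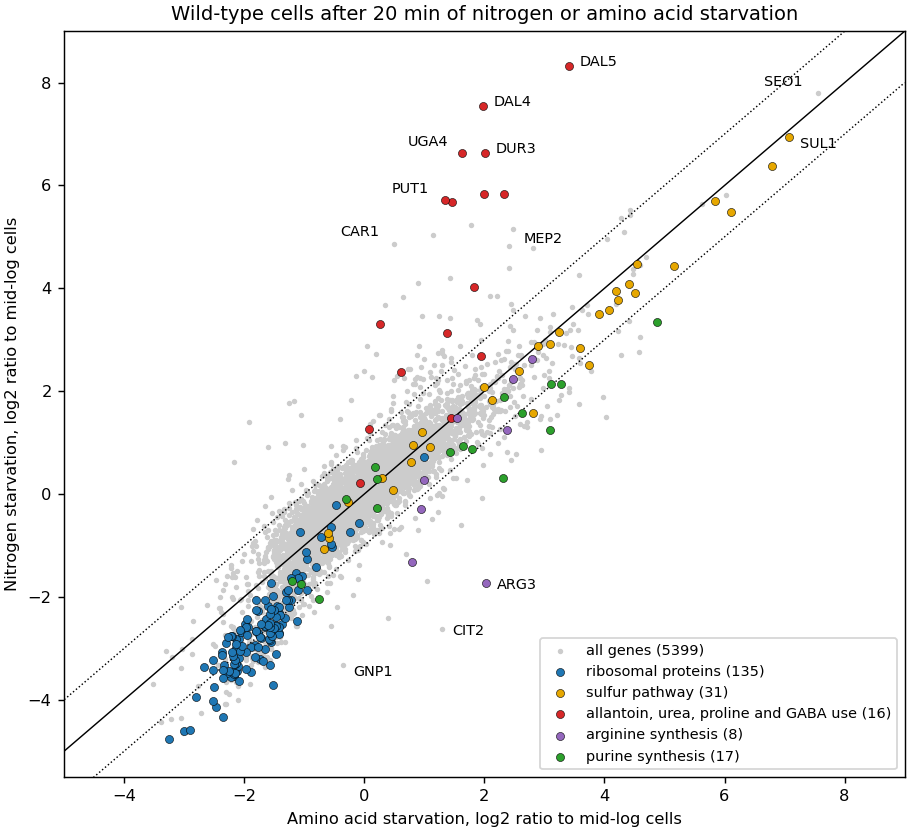
The log2 ratio to mid-log cells of 5399 genes in nitrogen starvation (vertical axis) against amino acid starvation (horizontal axis), 1 array each, with 5 classes of genes in colour. The solid line marks equal ratios and the dotted lines a 2-fold difference. Allantoin, urea, proline and GABA genes lie above the solid line, arginine synthesis genes below the line of equal ratios, sulfur pathway genes near it, and ribosomal protein genes at the lower left with 133 of 135 below it.

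The genes with the largest differences take up and break down allantoin and urea, nitrogen-rich compounds that yeast uses when nothing better is at hand. All 8 listed allantoin and urea genes with a value were at least 2-fold higher in nitrogen starvation, with a median difference of 4.03 against 0.01 for all genes. DAL4, which encodes the allantoin permease, was at 7.55 in nitrogen starvation and 1.97 in amino acid starvation, a 47.8-fold difference (5.58). DAL5, the allantoate permease gene, was at 8.33 and 3.41, 30.3-fold apart (4.92). Both permease genes were thus up on either array and far more so without nitrogen. DUR3, the urea permease gene, was at 6.63 and 2.01, a difference of 4.62. The enzymes of the pathway had the same order of ratios. DAL1 (allantoinase) was at 5.84 and 1.99, DAL2 (allantoicase) at 5.84 and 2.32, and DAL3 (ureidoglycolate lyase) at 4.02 and 1.83. DAL7, a malate synthase that uses the glyoxylate released by the pathway, was at 5.67 and 1.46. DCG1, a gene of unknown function in the same cluster, was at 3.30 and 0.26, so it stayed near its mid-log level without amino acids. Of the 8 genes, 7 were at least 2-fold up in amino acid starvation. The list kept 8 of 8 genes at least 2-fold higher under each of the other scalings.

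The 6 genes DAL1, DAL4, DAL2, DCG1, DAL7 and DAL3 are neighbours on chromosome IX, in this order. Their differences were 3.85, 5.58, 3.52, 3.04, 4.21 and 2.19. The genes beside the cluster did not share them. YVH1, next to DAL1, was at −1.80 in nitrogen and −1.24 in amino acid starvation (difference −0.56), and MGA2, next to DAL3, at −0.33 and −0.82 (0.49). A little further out, MND2 had a difference of 0.25, DAL81, an activator of several nitrogen genes, 0.71, and LYS1, a lysine synthesis gene, −0.49. INA22, NRE1 and IRC24 had no named probe with a value.

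**Figure D2:**
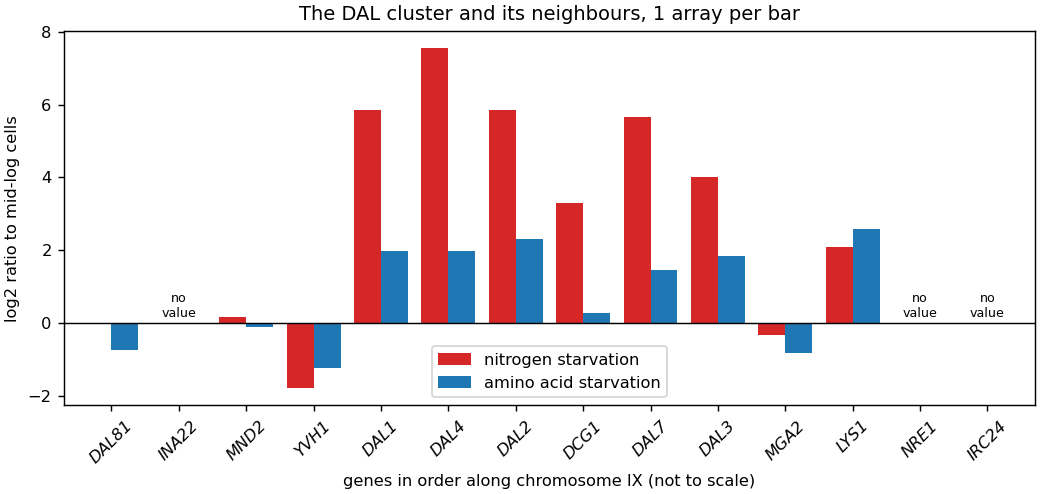
Log2 ratios to mid-log cells of the 6 genes of the DAL cluster and their neighbours, in the order they lie on chromosome IX (spacing not to scale), with red bars for nitrogen starvation and blue bars for amino acid starvation, 1 array each. The red bars of the cluster reach 3.30 to 7.55 and the blue ones 0.26 to 2.32, and the difference ends at YVH1 and MGA2.

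Genes for proline and GABA use, both sources of glutamate, were also higher without nitrogen. Of 8 genes, 5 were past 2-fold on the higher side and none on the lower, with a median difference of 1.48. UGA4, the GABA permease gene, was at 6.63 in nitrogen starvation and 1.62 in amino acid starvation, 32.2-fold apart. PUT1, proline oxidase, was at 5.71 and 1.35, 20.5-fold apart. The other enzymes and the proline permease differed less: PUT4, the permease gene, was at 3.13 and 1.37 (difference 1.76), UGA1, GABA transaminase, at 2.38 and 0.61 (1.77), and PUT2, the next enzyme after proline oxidase, at 1.26 and 0.07 (1.19). UGA2, succinate semialdehyde dehydrogenase, was 0.75 higher. The pathway activators did not differ 2-fold, with UGA3 at 1.48 and 1.44 and PUT3 at 0.21 and −0.07.

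Arginine breakdown was among the clearest differences. CAR1, arginase, was at 4.87 in nitrogen starvation and 0.50 in amino acid starvation, a 20.7-fold difference. CAR2, the ornithine aminotransferase that acts on its product, was at 2.87 and 0.04, a difference of 2.83. Neither gene was 2-fold away from mid-log without amino acids. Both belong to a list of amino acid breakdown genes, of which 5 of 15 were at least 2-fold higher, none lower, with a median of 0.69. The other 3 were ARO9, an aromatic aminotransferase (2.28 and 0.13, difference 2.15), SDL1 (2.43 and 0.73, 1.70) and CHA1, the serine and threonine deaminase that is turned on by those amino acids. CHA1 was near mid-log in nitrogen starvation at 0.36 and below it in amino acid starvation at −1.26 (1.62), so it was 2-fold away from mid-log only without amino acids. Genes for glycine cleavage went the other way by less than 2-fold, with a difference of −0.77 for GCV3 and −0.59 for GCV1. So did ASP1, cytosolic asparaginase, with a difference of −0.88. The median of this list rests on few genes: over the 12 members with a value on all 15 arrays it was −0.055, since BAT2, SDL1 and PDC6 drop out.

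Ammonium uptake and glutamate synthesis genes had a median difference of 0.74, with 2 of 9 genes at least 2-fold higher. MEP2, which encodes the high-affinity ammonium permease and sensor, was at 5.16 in nitrogen starvation and 2.48 in amino acid starvation (2.68). The lower-affinity permease genes followed at smaller sizes, with MEP1 at 1.97 and 0.98 (0.99) and MEP3 at 0.57 and 0.37. GDH3, a glutamate dehydrogenase isozyme that fixes ammonium, was at 2.50 and 1.16 (1.34), while its main isozyme gene GDH1 was at 0.31 and −0.52 (0.83). Glutamate synthase GLT1 was 0.74 higher. GLN1, glutamine synthetase, stood at 1.20 and 0.78, and GDH2, which releases ammonium from glutamate, at 1.88 and 1.56. ATO2, a plasma membrane protein linked to ammonium export, was the only gene of this list below 0, at 2.89 and 3.32 (−0.43).

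Among the GATA factors and their partners, the repressor gene DAL80 stood apart. It was at 5.23 in nitrogen starvation and 1.78 in amino acid starvation, 10.9-fold apart, and was the only 1 of 8 genes past 2-fold. GAT1, the activator that is itself under nitrogen control, was at 2.03 and 1.25, and the repressor gene GZF3 at 1.99 and 1.26, so both were at least 2-fold up on either array with differences of 0.78 and 0.73. GLN3, the other activator, was at 0.93 and 0.80, and URE2, which holds it in the cytosol, at −0.61 and −0.40. NPR1, a kinase that stabilises nitrogen permeases, was at 1.36 and 0.68.

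Amino acid permease genes split into groups of opposite sign. Of 16 genes for plasma membrane amino acid and peptide permeases, 5 were at least 2-fold higher in nitrogen starvation and 6 at least 2-fold lower, with a median of −0.40. On the higher side were permeases of broad range or known nitrogen control. This description, and that of the lower side, was made after the values were seen. OPT2, of the oligopeptide transporter family, was at 4.11 and 0.89 (3.22), DIP5, for glutamate and aspartate, at 3.86 and 2.10 (1.76), and GAP1, a permease for nearly all amino acids, at 3.86 and 2.21 (1.65). AGP1, a broad-range permease, was at 3.70 and 2.44 (1.26), and CAN1, for arginine, at 3.0 and 1.95 (1.05). All of these except OPT2 were also at least 2-fold up without amino acids. With the arrays scaled to equal SD, 3 permease genes were past 2-fold on the higher side and 5 on the lower.

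On the lower side were permeases for single amino acids or small groups of them, several of them known targets of the SPS sensor, as AGP1 also is. GNP1, the high-affinity glutamine permease gene, was at −3.33 in nitrogen starvation and −0.36 in amino acid starvation, 7.84-fold apart (−2.97). BAP3, for branched-chain and other amino acids, was at −1.69 and 1.05, so it was below mid-log on one array and above it on the other (−2.74). TAT2, for tryptophan and tyrosine, was at −2.20 and −0.46 (−1.74). HIP1, for histidine, was at −0.49 and 1.12 (−1.61), BAP2 at −0.94 and 0.29 (−1.23) and TAT1 at −3.31 and −2.14 (−1.17). The genes of the sensor itself did not follow: SSY1, PTR3, SSY5, STP1, STP2 and DAL81 had differences of −0.20 to 0.71, with 0 of 6 past 2-fold. AGP3 was similarly high on both arrays at 3.94 and 4.20.

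**Figure D3:**
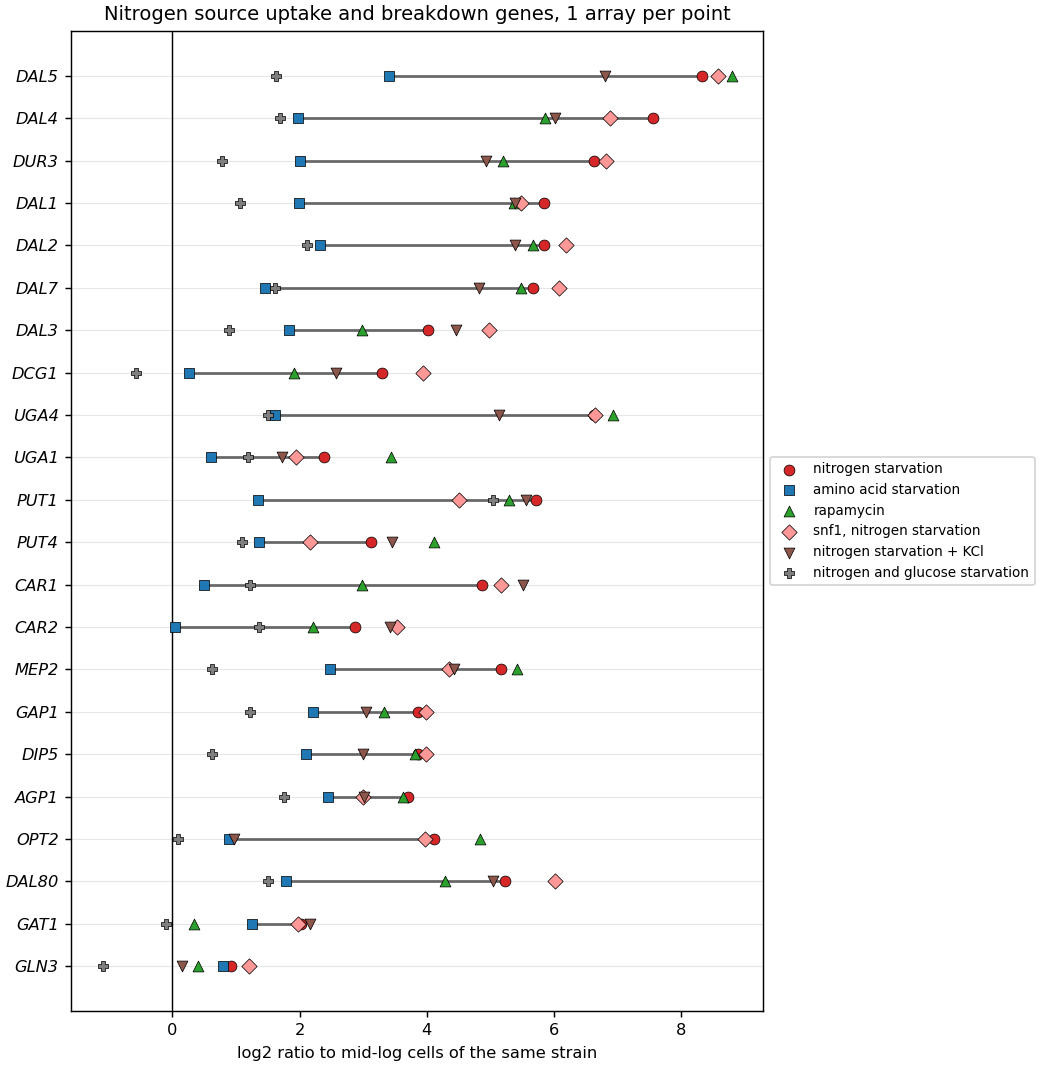
Log2 ratios to mid-log cells of 22 genes for nitrogen source uptake, breakdown and control on 6 arrays, 1 array per point, with a grey line joining nitrogen starvation (red circles) to amino acid starvation (blue squares). Red lies to the right of blue in every row, by 5.58 for DAL4 and by 0.13 for GLN3. In the 8 rows of DAL and urea genes at the top, the rapamycin, snf1 and KCl points lie between 1.91 and 8.79.

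Genes for autophagy and vacuolar protein breakdown, by which starving cells recycle their own protein, were mildly higher without nitrogen. Of 22 genes 18 had a positive difference, with a median of 0.53, but only 3 were at least 2-fold higher. These were CPS1, the vacuolar carboxypeptidase S (2.30 and −0.14, difference 2.44), PRB1, vacuolar protease B (2.22 and 0.50, 1.72), and APE1, the aminopeptidase carried to the vacuole by an autophagy-like route (2.88 and 1.6, 1.28). Core autophagy genes varied. ATG1, the starting kinase, was at 2.53 and 2.04 and ATG8, a ubiquitin-like protein on autophagosome membranes, at 2.33 and 1.56. ATG13, which acts with ATG1, was near mid-log at −0.17 and −0.14. ATG41 was lower without nitrogen, at 1.15 and 2.00. The master protease gene PEP4 was at 0.62 and 0.01.

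The gene furthest down was CIT2, the peroxisomal citrate synthase and the classic marker of the retrograde response. It was at −2.63 in nitrogen starvation and 1.29 in amino acid starvation, 15.1-fold apart (−3.92). DLD3, a D-lactate dehydrogenase and another retrograde target, was at −2.42 and 0.40, 7.06-fold apart. Of the other genes in this list of 18, only ODC1, a mitochondrial 2-oxodicarboxylate carrier, was past 2-fold, and it was higher (1.45 and 0.41, difference 1.04). Mitochondrial citrate synthase genes CIT3 (0.47 and 1.42) and CIT1 (0.47 and 1.28) had differences of −0.95 and −0.81, and aconitase ACO1 one of −0.11. The regulators differed by less than 2-fold, with RTG1 at 0.17 and −0.22, RTG3 at 0.90 and 1.43, RTG2 at 0.48 and −0.20 and MKS1 at −0.08 and −0.46.

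Genes for arginine synthesis were lower in nitrogen than in amino acid starvation, whereas the arginine breakdown genes CAR1 and CAR2 were higher. All 8 genes had a negative difference, 4 of them past 2-fold, with a median of −0.93. ARG3, ornithine carbamoyltransferase, was at −1.74 without nitrogen and 2.03 without amino acids, 13.6-fold apart (−3.77). ARG8, of ornithine synthesis in mitochondria, was at −1.32 and 0.80 (−2.12). These genes, like CIT2 and BAP3, lay on opposite sides of mid-log. CPA1, of carbamoyl phosphate synthase, was at −0.30 and 0.95 (−1.25), and ARG1, argininosuccinate synthase, at 1.24 and 2.37 (−1.13). ARG2 was at 0.28 and 1.00 (−0.72). The remaining genes of the list differed little: ARG4 was at 2.63 and 2.80, ORT1, the mitochondrial ornithine carrier, at 2.23 and 2.48, and ARG7 at 1.47 and 1.54. ARG80, which encodes a regulator of arginine genes and was in none of the lists, was at −1.17 and 0.69 (−1.86).

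Other amino acid pathways leaned the same way with smaller sizes. Serine and glycine synthesis had the lowest median of all lists, −1.03, with 4 of 7 genes past 2-fold. SER3, phosphoglycerate dehydrogenase, was at 2.40 in nitrogen and 3.78 in amino acid starvation, and SHM2, serine hydroxymethyltransferase, at 1.40 and 2.71. SER1 was at 0.31 and 1.53, and like SER3 and SHM2 it was nearer to mid-log without nitrogen. SER2, at −0.62 and 0.41, was below mid-log without nitrogen and above it without amino acids. Of the 7 histidine genes, with a median of −0.62, only HIS7 was past 2-fold (0.32 and 1.47), while HIS3 (2.64 and 3.57) and HIS4 (2.25 and 3.07) were high on both arrays. HOM3, aspartate kinase, was at 0.99 and 2.22, the only 1 of 5 threonine and homoserine genes past 2-fold (median −0.48). PRO1, which starts proline synthesis, was at −2.88 and −1.39, the only 1 of 7 proline and asparagine genes past 2-fold. That list had a median of −0.15, with ASN1 (difference 0.25) and AAT1 (0.59) above 0. With quantile normalization 0 of its genes were past 2-fold. Lysine (median −0.40), branched-chain (−0.43) and aromatic (−0.30) synthesis had no gene past 2-fold. The mRNA of GCN4 itself was at 0.51 and 0.30, and that of GCN2 at 0.02 and −0.57. Gcn4 is controlled mainly by translation, which these arrays do not measure.

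Purine synthesis and its one-carbon supply had 6 of 17 genes at least 2-fold lower without nitrogen, against 4.39% of all genes, and a median of −0.72. ADE4, which catalyses the first committed step, was at 0.31 in nitrogen starvation and 2.31 in amino acid starvation, a 4-fold difference. ADE17, which acts near the end of the pathway, was at 3.35 and 4.88 (−1.53), and MTD1, a folate dehydrogenase, at 1.25 and 3.09 (−1.84). ADE2 (2.14 and 3.28) and ADE13 (1.58 and 2.62) were likewise up on both arrays and further up without amino acids. PRS4, of phosphoribosyl pyrophosphate synthesis, was down on the nitrogen array (−2.05 and −0.76). In the GTP and salvage branch AAH1, adenine deaminase, was at −3.65 and −2.31 and IMD4, IMP dehydrogenase, at −4.37 and −3.23. They were the 2 of 10 genes of that branch past 2-fold, and 0 were with equal SD or quantile normalization. Pyrimidine genes had 3 of 13 past 2-fold: FUR4, the uracil permease gene (−1.96 and −0.19), URA7, CTP synthase (−4.64 and −3.03), and FUR1 (difference −1.04). With equal SD 2 pyrimidine genes were past 2-fold, and 1 with quantile normalization. Vitamin genes differed only in part. VHT1, the biotin permease gene, was at 1.88 and 3.97 (−2.09), SNZ1, of vitamin B6 synthesis, at 2.77 and 4.58 (−1.81), its partner SNO1 at 3.16 and 4.23 and BIO5 at −0.07 and 1.10, whereas the median of the 19 genes was 0.08.

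**Figure D4:**
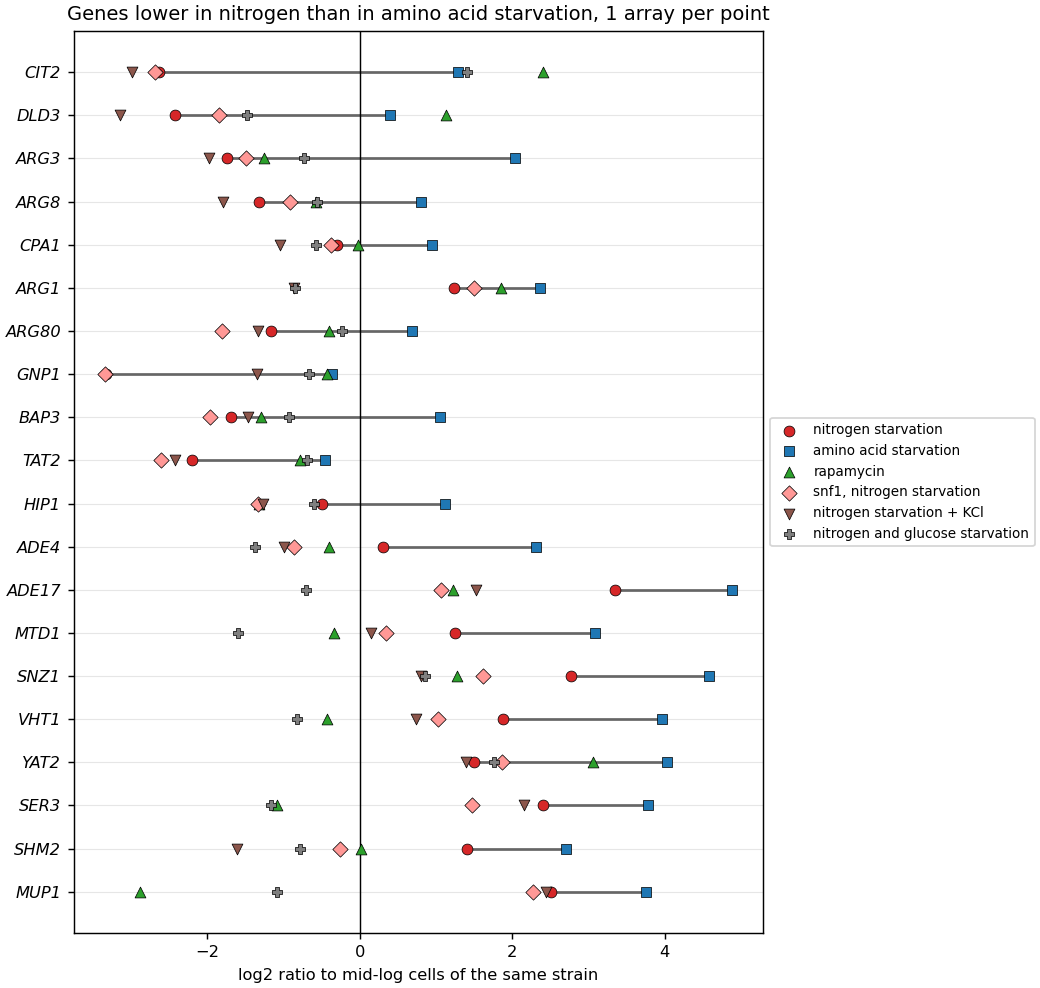
Log2 ratios to mid-log cells of 20 genes that were lower in nitrogen (red circles) than in amino acid starvation (blue squares), with 4 further arrays, 1 array per point. Red lies to the left of blue in every row; CIT2, ARG3 and BAP3 lie on opposite sides of 0 by at least 1 on each, and the rapamycin points of CIT2 (2.40) and DLD3 (1.13) lie to the right of their blue squares.

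The sulfur pathway was strongly up on both arrays, with differences that depended on the scaling. Sulfate uptake and reduction had a median of 3.77 in nitrogen starvation and 4.19 in amino acid starvation, and 0 of its 11 genes differed 2-fold (median −0.41). SUL1, a sulfate permease gene, was at 6.94 and 7.07 and SUL2, its paralog, at 6.38 and 6.79. MET3, ATP sulfurylase, was at 3.57 and 4.07. Among the 20 genes of methionine, cysteine and S-adenosylmethionine metabolism, with a median of −0.18, 2 permease genes were past 2-fold: MUP1, for methionine, at 2.51 and 3.75 and SAM3, for S-adenosylmethionine, at 1.58 and 2.81. STR3, cystathionine beta-lyase, and MUP3, another methionine permease gene, differed by −0.15 and −0.07. The pathway's activator gene MET4 was at 0.22 and 0.25 and its cofactor gene MET28 at 3.70 and 4.19. Scaled to equal SD, the sulfate median moved to −1.07 and 7 of the 11 genes were at least 2-fold lower, against 3 with quantile normalization. Methionine and cysteine genes then had 4 of 20 past 2-fold under either scaling.

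In all, 2521 genes, 1750 of them named, were within 0.25 log2 units of each other on the arrays. The highest of these by the mean of the arrays were SEO1, a permease-like gene of the allantoate permease family (7.80 and 7.56), SUL1, STR3, NCE103, carbonic anhydrase (4.45 and 4.60), and MUP3 (4.48 and 4.55). SEO1 thus did not share the difference of DAL5, a permease of the same family. The lowest were ZRT1, the high-affinity zinc transporter gene (−3.69 and −3.53), and its activator gene ZAP1 (−3.17 and −3.20), followed by SVL3 (−2.30 and −2.39), the alcohol acetyltransferase gene ATF2 (−2.22 and −2.42) and MCD4, of GPI anchor synthesis (−2.04 and −2.19). The likeness of genes this far from mid-log holds for the deposited scale: SEO1 went from 0.24 to −0.89 with equal SD and −0.51 with quantile normalization, ZRT1 from −0.16 to 0.37 and 1.03, and ZAP1 from 0.03 to 0.50 and 1.10.

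The largest block of lower genes makes ribosomes. Of 135 cytosolic ribosomal protein genes, 133 had a negative difference and 58 (43.0%) were at least 2-fold lower in nitrogen starvation, against 4.39% of all genes. Their median was −2.70 in nitrogen starvation and −1.73 in amino acid starvation, a median difference of −0.92 with a range of −2.19 to 0.34. The small and large subunits were alike, with medians of −0.91 over 55 genes and −0.93 over 80 genes. RPL8A was lowest at −3.72 and −1.53, followed by RPL7B at −4.33 and −2.36. Only RPS20 (0.26) and RPS22B (0.34) were above 0. This difference depended on the scale: with equal SD 15 genes were past 2-fold (median −0.61, 129 below 0), and with quantile normalization 1 gene (median −0.22, 102 below 0). The 58 pairs of duplicate genes had a median gap of 0.30 between the copies. The widest were RPS22 (−1.10 and 0.34), RPL8 (1.09 apart) and RPL7 (1.05 apart). Near-identical copies can share signal on the array, and a value cannot be assigned to 1 copy with certainty.

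Ribosome assembly genes had the same pattern. Of 42 small subunit processome and 40S assembly genes 20 were at least 2-fold lower (median −0.97), and of 44 genes for 60S assembly 18 (median −0.85). Among all genes 4.39% were lower by as much. NSR1, a nucleolin-like protein of pre-rRNA processing, was at −4.01 and −2.10 (−1.91), UTP4 at −3.69 and −1.91 (−1.78), NOP58, a box C/D snoRNP core protein, at −4.08 and −2.30 (−1.78), and PWP1 at −4.09 and −2.32 (−1.77). With equal SD 10 and 5 genes of these lists stayed past 2-fold, and 0 of either with quantile normalization. RNA polymerases I and III (5 of 27, median −0.34), translation factors (3 of 40, −0.50) and tRNA synthetases (0 of 18, −0.39) were closer together, with 0 genes of these lists past 2-fold after quantile normalization. Mitochondrial ribosomal proteins, with 0 of 61 past 2-fold, had a median of −0.07. In all, ribosomal proteins (135 of the 5399 genes) and the assembly and polymerase genes (lists of 42, 44 and 27) made up 58 and 43 of the 237 lower genes.

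**Figure D5:**
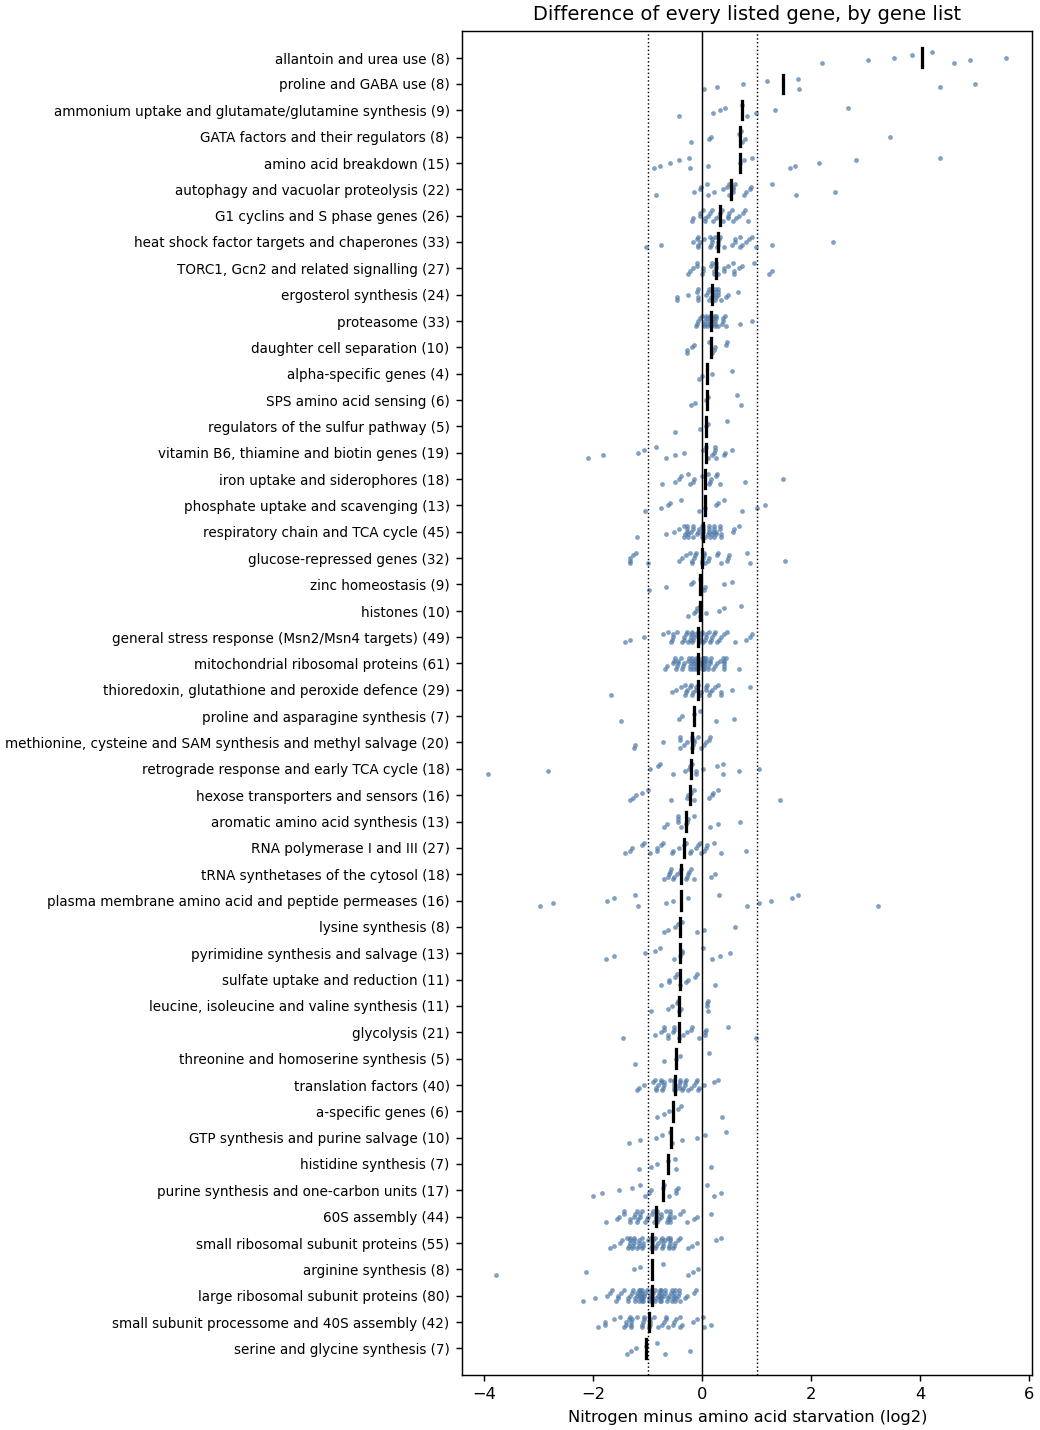
Difference between nitrogen and amino acid starvation (log2) for every gene of each list that had a value on both arrays, with the number of genes in brackets; each dot is a gene, black bars are list medians and dotted lines mark a 2-fold difference. Allantoin and urea use stands highest with a median of 4.03, and serine and glycine synthesis lowest with −1.03, next to the ribosome lists and arginine synthesis.

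The genes that lay at least 2-fold on opposite sides of mid-log were few. AQR1, a plasma membrane exporter that releases amino acids, was at 1.39 in nitrogen starvation and −1.93 in amino acid starvation (3.32). AAP1 was at 1.76 and −1.25 (3.01); this symbol has been used for an aminopeptidase gene and is also a synonym of the mitochondrial gene ATP8, so which transcript the probe reads is uncertain. YGK3, a kinase of the GSK3 family, was at 1.8 and −1.17 (2.97). The remaining pair, AI5_ALPHA (1.53 and −1.05) and AI5_BETA (1.00 and −1.32), lie in introns of the mitochondrial gene COX1. In the reverse direction there were CIT2, ARG3 and BAP3.

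The AI5 genes prompted a look at all genes of the mitochondrial genome, a group chosen after their values were seen. Of 19 such genes 10 had a value on both arrays, with medians of 0.95 in nitrogen and −0.63 in amino acid starvation. By 2-fold or more, 7 were higher and 1 was lower, against 2.41% and 4.39% of all genes. The 7 are not separate loci: AI1 (difference 2.79) and AI4 (2.52), like the AI5 pair, lie in introns of COX1, itself among the 7. COX2 (0.19) and COX3 (0.70) did not differ 2-fold. COX1, a subunit of cytochrome oxidase, was at 1.82 and −0.23 (2.05), VAR1, the ribosomal protein of the mitochondrial genome, at 0.95 and −1.02 (1.97), and OLI1, of ATP synthase, at 2.14 and 0.84 (1.30). COB, cytochrome b, was the 1 lower gene, at 0.12 and 1.31 (−1.19). The nuclear genes for the respiratory chain and TCA cycle had a median of 0.01, with 0 of 45 higher and 1 lower. The labels give the RNA as polyA RNA, which mitochondrial transcripts of yeast are not, and the part this had in these values was not tested.

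General stress genes were up on both arrays (medians 1.47 and 1.66). Of 49, 0 were at least 2-fold higher and 3 lower, against 2.41% and 4.39% of all genes. The same shares stand beside the counts of the other lists in this paragraph. The 3 lower genes were TKL2, a transketolase (1.99 and 3.41), HXK1, a hexokinase (−0.04 and 1.29), and ALD3, an aldehyde dehydrogenase (0.90 and 1.96). Glucose-repressed genes had a median near 0 with 1 of 32 higher, MLS1, malate synthase (3.39 and 1.87), and 6 lower. The 6 were HXK1, also a general stress gene, CYB2 (1.33 and 2.66), HXT7, HXT2, HXT6 and HXT4. These HXT genes are counted again among the hexose transporters. Hexose transporters and sensors had 5 of 16 genes lower, against 4.39% of all genes: HXT7 (1.72 and 3.04), HXT2 (−0.69 and 0.58), HXT6 (1.10 and 2.32), HXT3 (−2.46 and −1.35) and HXT4 (−0.75 and 0.25). With equal SD 3 genes of the list were lower by 2-fold or more, and 4 with quantile normalization. HXT6 and HXT7 are nearly identical and may share signal. MIG2, a glucose-induced repressor gene, was the 1 higher gene of that list, at −0.23 and −1.65. Among 33 heat shock factor targets and chaperones the median was 0.29. BTN2 (2.39 and −0.01) and HSP82 (−0.50 and −1.79) were higher, and SSB2, a ribosome-bound chaperone gene, was lower (−2.58 and −1.55). The proteasome (0 of 33, median 0.17), G1 and S phase genes (0 of 26, median 0.32), histones, ergosterol synthesis and zinc homeostasis had no gene past 2-fold. With quantile normalization, 4 of the 26 G1 and S phase genes and 3 of 9 zinc genes were at least 2-fold higher. In signalling, 2 of 27 genes were higher: TOR1, a kinase of TORC1, at 0.93 and −0.36 (1.29) and NPR3, of the complex that restrains TORC1, at 0.55 and −0.67 (1.22). SIT1, a siderophore transporter gene, was higher (0.94 and −0.55). Of 13 phosphate genes, with a median of 0.05, PHM6 (1.61 and 0.45) and GIT1 (2.22 and 1.22) were higher and PHO84, the phosphate transporter gene, lower (3.37 and 4.41). Of thioredoxin, glutathione and peroxide defence genes only ATR1, an exporter gene, differed 2-fold (1.54 and 3.21), and of glycolytic genes only TDH2 (−2.57 and −1.12).

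The lists accounted for 39 of the 130 higher genes and 154 of the 237 lower genes. Nitrogen use, permease, breakdown and regulator lists held 26 of the higher ones. The share of all 5399 genes that the lists hold was not counted, so these numbers cannot show an excess in either group. The genes named here outside the lists were picked for the size of their values. Among the higher ones, QDR3, a multidrug and polyamine exporter gene, was at 3.83 and 0.64 (3.19), AMD2, a putative amidase gene, at 4.21 and 1.43 (2.78), and ATG32, the receptor for degradation of mitochondria by autophagy, at 2.80 and 1.30 (1.5). ASP3-3, one of several near-identical genes for extracellular asparaginase, was at 2.74 and 1.23, and INO1, inositol phosphate synthase, at 0.29 and −1.27. Among the lower ones, YAT2, a carnitine acetyltransferase, was at 1.5 and 4.03 (−2.53), GPP1, glycerol phosphatase, at −2.56 and −0.56 (−2.0), and ADH5, an alcohol dehydrogenase, at 1.75 and 3.57 (−1.82). A further 42 higher and 39 lower probes had no gene name, with differences between −2.22 and 3.89.

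The same genes were read on 4 arrays that the difference did not use. These held wild-type cells with 200 nM rapamycin, which inhibits TORC1, snf1 cells (strain ACY509, without the yeast AMP-activated kinase) in nitrogen starvation, wild-type cells in nitrogen starvation with 0.375 M KCl, and wild-type cells in nitrogen and glucose starvation. Each lasted 20 min, with mid-log cells of the same strain in Cy3. The wild-type arrays may share mid-log RNA with those compared here, so values are given side by side. The 130 higher genes had medians of 2.23 in nitrogen and 0.53 in amino acid starvation. They were at 2.17 with rapamycin (124 genes with a value), 1.96 in snf1 cells without nitrogen, 1.31 with KCl added and 0.92 with glucose withdrawn as well. The 237 lower genes had medians of −2.59 and −1.42, and of −0.98 with rapamycin (223 genes), −2.71 in snf1 cells, −3.42 with KCl and −1.01 without nitrogen and glucose. The corresponding medians of all genes were −0.04, 0.08, 0.04 and −0.18.

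Single genes parted company on those arrays. DAL5 was at 8.79 with rapamycin, 8.57 in snf1 cells and 6.80 with KCl, but at 1.63 when glucose was also withdrawn. UGA4 had 6.92, 6.64, 5.13 and 1.5 in the same order, and DAL80 4.28, 6.01, 5.04 and 1.51. PUT1 remained at 5.04 without nitrogen and glucose, unlike these. CIT2, at −2.63 without nitrogen, was at 2.40 with rapamycin and at 1.40 without nitrogen and glucose, while snf1 cells without nitrogen had −2.68 and wild-type cells with KCl −2.99. DLD3 was at 1.13 with rapamycin and −1.85 in snf1 cells. ARG3, by contrast, was below mid-log on all 4 of these arrays, at −1.25, −1.49, −1.98 and −0.73. GNP1 was at −3.34 in snf1 cells without nitrogen and −0.43 with rapamycin. AQR1, higher only in nitrogen starvation of the arrays compared here, was at −2.02 with rapamycin, 0.73 in snf1 cells, 2.44 with KCl and −1.34 without nitrogen and glucose. CHA1 was at 6.16 with rapamycin, above its values on the arrays compared here. Sulfate genes, high on both starvation arrays, had a median of −0.11 with rapamycin (8 genes with a value) and 4.04 in snf1 cells.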

How the data were processed

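The authors deposited log ratios of Cy5 over Cy3 for 2-colour arrays, rounded to 2 decimals. The sources used here do not give the base of the deposited values, which was taken as log2 from the size of the extremes, and every fold rests on this. Nor do they give background correction, normalization, spot filtering or intensities, so the precision of weak spots is unknown. Exact zeros were taken as no value on the arrays compared here and on the rapamycin, KCl, heat shock and mid-log snf1 arrays. On the other arrays, among them snf1 nitrogen starvation, nitrogen starvation with KCl and nitrogen plus glucose starvation, zeros were kept as values. Of the arrays compared, 581 genes had zeros on both, 88 on the nitrogen array only and 181 on the amino acid array only. The 6256 gene probes (61 control spots left out) had a symbol for 4075, several for 0 and none for 2181; 129 symbols were updated and 4071 matched the RefSeq annotation of assembly R64. Probes of 7 genes were averaged. No column was left unused (0). Differences, counts, medians and figures were made with Python 3.11.15, pandas 2.3.3, numpy 2.4.6 and matplotlib 3.10.9, and the counting was tested on simulated data.

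Members and the 50 gene lists were chosen with earlier results of these data known. The plan was to name the 15 highest and 15 lowest differences, up to 8 opposite genes a direction, and the 5 highest and 5 lowest similar genes. It also held 11 regulators and list ends, up to 4 a side, with every member of lists of up to 12. Only part of these list members are named in the text, and the choice among them followed no stated rule. Genes outside the lists, BAP2, TAT1, CAN1 and other list members beyond the plan were named after their values were seen. Alternatives were the handling of zeros, the gene set, array scaling, the fold limit and the probe rule. Promoter motifs were not analysed here.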

Additional observations from a re-analysis of the deposited data

How the results depend on the processing

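With 1 array per condition no setting tests a difference against replicate error, and no left-out sample was possible. No paired analysis was possible because each condition has 1 array. Of 311 recomputed differences of 53 named genes 57 moved by more than the probe SD of 0.254. All were under scaling to equal SD (29 of 53 genes) or quantile normalization (28 of 53). The other settings left these differences unchanged or, with recentring, shifted all by the same smaller amount. Of 299 list medians 20 moved as far, 9 with equal SD, 10 with quantile normalization and 1 with the all-array gene set. Of the 16 recomputed totals of higher or lower genes 5 differed by over 1.5 times. Of these, 2 came with each changed fold limit and 1 with quantile normalization. The 33 genes at least 2-fold apart kept their sign throughout, whereas 3 of the 20 others changed it (SEO1, ZRT1 and, by recentring to −0.05, ZAP1). So did the medians of 6 lists, each under 2-fold, 10 times in all. A 1.5-fold limit gave 445 higher and 609 lower genes, and a 4-fold limit 34 and 14. With quantile normalization 98 genes were lower, 86 of them among the 237.

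Scaled to equal SD and quantile normalized, in that order, medians became 3.50 and 3.47 for allantoin and urea use, −1.07 and −0.84 for sulfate uptake and reduction, −0.60 and −0.19 for small and −0.62 and −0.26 for large subunit proteins, −0.70 and −0.46 for 40S assembly, −0.55 and −0.34 for 60S assembly, and 0.27 and 0.35 for zinc homeostasis, from −0.03. Equal SD alone moved permeases to −0.73 and methionine and cysteine metabolism to −0.45. Quantile normalization alone moved GTP synthesis and purine salvage to −0.21, pyrimidine genes to −0.05 and translation factors to −0.15. Genes with a value on all 15 arrays moved amino acid breakdown to −0.055, since BAT2, SDL1 and PDC6 lack a value on another array. Scaling to equal SD changes every ratio in proportion to its size; the causes of the other shifts were not tested. Spot intensities were not used here, so which weak spots limit these values is unknown.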

Other observations

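Genes with a value on only 1 array have no difference and were left out of every count above. The 181 genes with a value on the nitrogen array only were at −2.68 to 2.47 there, with a median of 0.05. Of these, 19 were up and 8 down against mid-log by 2-fold or more. Among the 5399 genes with both values, 14.8% were up and 15% down on that array by as much. The 88 genes with a value on the amino acid array only were at −2.88 to 1.8, with a median of −0.53, and 2 were at least 2-fold higher and 23 lower. On that array 13.6% of the 5399 genes were higher and 14.5% lower by as much. The 88 genes included ribosome synthesis genes: PWP2 was at −2.88, UTP9 at −1.58 and the RNA polymerase I subunit gene RPA43 at −1.60. LYS20, homocitrate synthase of lysine synthesis, was at 1.8. On the nitrogen array ARO10, a decarboxylase of aromatic amino acid breakdown, was at 1.70 and UGX2 at 2.09. The ribosome synthesis and breakdown lists above therefore lack some members whose single values are far from mid-log.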
